A study of Mus musculus with 7 samples.

Results

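The 48 genes described here encode the matrix proteins of the heart that are not collagens: adhesive glycoproteins, small leucine-rich proteoglycans, elastic fibre proteins, latent TGF-beta binding proteins, basement membrane proteins and a few others. They were chosen by name, as rows of the deposited gene tables whose Ensembl identifier maps to a listed mouse symbol. The rule uses no measured value, but the list was drawn up with earlier results of these data known. All 48 were found among the 22027 genes listed, and all 48 passed the filter on low counts that left 12674 genes for testing. RNA was sequenced from left ventricle of 12-month-old mice of strain C57BL/6J. The first group, labelled G3 PGC1aOE, has 3 libraries from telomerase-deficient mice in which PGC1alpha is overexpressed, and the second, labelled G3, has 4 libraries from telomerase-deficient mice without it. Both groups therefore carry the telomerase deficiency, and there is no group with telomerase. The labels do not name the promoter that drives PGC1alpha, nor whether libraries come from separate litters, so every p-value refers to the spread among these libraries, which may be technical. The question the design implies is whether raising PGC1alpha, which coactivates transcription of genes for mitochondria and metabolism, goes with a different ventricular transcriptome in mice with shortened telomeres.

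Cardiac matrix is made largely by fibroblasts, with basement membrane components also coming from cardiomyocytes, endothelial cells and smooth muscle. Fibronectin and collagens form the fibrillar scaffold, small leucine-rich proteoglycans bind collagen fibrils and set their diameter, and fibrillin microfibrils carry elastin and store latent TGF-beta through its binding proteins. Matricellular proteins such as periostin, thrombospondins and tenascins are low in the healthy adult ventricle and are known for their induction after injury or under load.

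Total counts ran from 11576569 to 16056740 in the 3 libraries labelled G3 PGC1aOE, against 10106705 to 14119403 in the 4 G3 libraries. Ppargc1a, which encodes PGC1alpha, had 103, 43.9 and 58.1 CPM (counts relative to library totals scaled by TMM) in the libraries labelled G3 PGC1aOE, against 94.7, 56.8, 118 and 86.7 CPM in G3 libraries. Its log2 fold change was -0.38 (SE 0.34, adjusted p = 0.847 in edgeR's quasi-likelihood test), so the targeted transcript was not measurably higher in the libraries that carry the overexpression label. Cardiomyocyte markers were abundant everywhere, with a summed level of 58463 to 77957 CPM in G3 PGC1aOE libraries and 56676 to 78736 CPM in G3 libraries over 10 genes. Fibroblast markers summed to 1494 to 2608 CPM in G3 PGC1aOE libraries and 1219 to 1818 CPM in G3 libraries over 14 genes. Markers of atrial cardiomyocytes differed widely inside both groups, at 3923, 468 and 2287 CPM in G3 PGC1aOE libraries 1 to 3 and 2625, 2803, 72.3 and 601 CPM in G3 libraries 1 to 4 over 4 genes. In whole tissue, fewer cells of a type and less RNA per cell cannot be told apart.

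No member passed the threshold of 0.05 on the adjusted p between the libraries labelled G3 PGC1aOE and G3, in a comparison that called 0 of 12674 genes (0%) and in which 548 genes (4.32%) and 9 members had an unadjusted p under 0.05. DESeq2 called 3 genes and limma voom called 0, none of them a member. The lowest adjusted p of any member was 0.847 in edgeR, 0.601 in DESeq2 and 0.560 in limma voom. In direction, 38 of the 48 members had a positive log2 fold change, meaning a higher estimate in G3 PGC1aOE libraries, against 50.9% of all tested genes. The median log2 fold change of the members was 0.51, against 0.01 over all tested genes. Marker lists of other cells had positive medians too: 0.57 over 14 fibroblast markers (11 positive), 0.39 over 12 endothelial markers (10 positive), 0.85 over 8 Schwann and neuronal markers (8 positive) and 1.45 over 8 adipocyte markers (8 positive), and the part of these cells in the members' estimates was not tested. In CPM, all 3 G3 PGC1aOE libraries lay above all 4 G3 libraries for 8 members (16.7%). The same held for 2.19% of tested genes. No member lay below without overlap, where 2.39% of tested genes did. In deposited FPKM, which is not scaled by TMM, Ogn, Comp, Eln and Fbln1 overlapped between the groups. G3 PGC1aOE library 2 had 24.3 FPKM of Ogn and 7.98 of Comp, against up to 25.5 and 8.08 FPKM in G3 libraries. G3 PGC1aOE library 3 had 21.9 FPKM of Eln and 41.7 of Fbln1, against up to 26.6 and 50.4 FPKM in G3 libraries. Lum, Ecm2, Fbln7 and Matn2 did not overlap in FPKM either. An unadjusted p under 0.05 with a higher value was found for 9 members, against 3.05% of tested genes, and with a lower value for 0 members, against 1.27%.

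The groups of members differed in these counts. Positive estimates were found for 10 of 11 fibronectin and matricellular genes (median log2 fold change 0.56), 9 of 9 small leucine-rich genes (0.67), 12 of 13 elastic fibre and fibulin genes (0.57), 3 of 4 latent TGF-beta binding genes (0.37), 3 of 3 of the versican, matrilin and ECM1 set (0.28) and 1 of 8 basement membrane genes (-0.11). The laminin, nidogen and perlecan genes had estimates near 0, where those of most interstitial matrix genes were positive. This difference between roles was not tested, and none of the estimates counted here passed the test on its own.

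**Figure D1:**
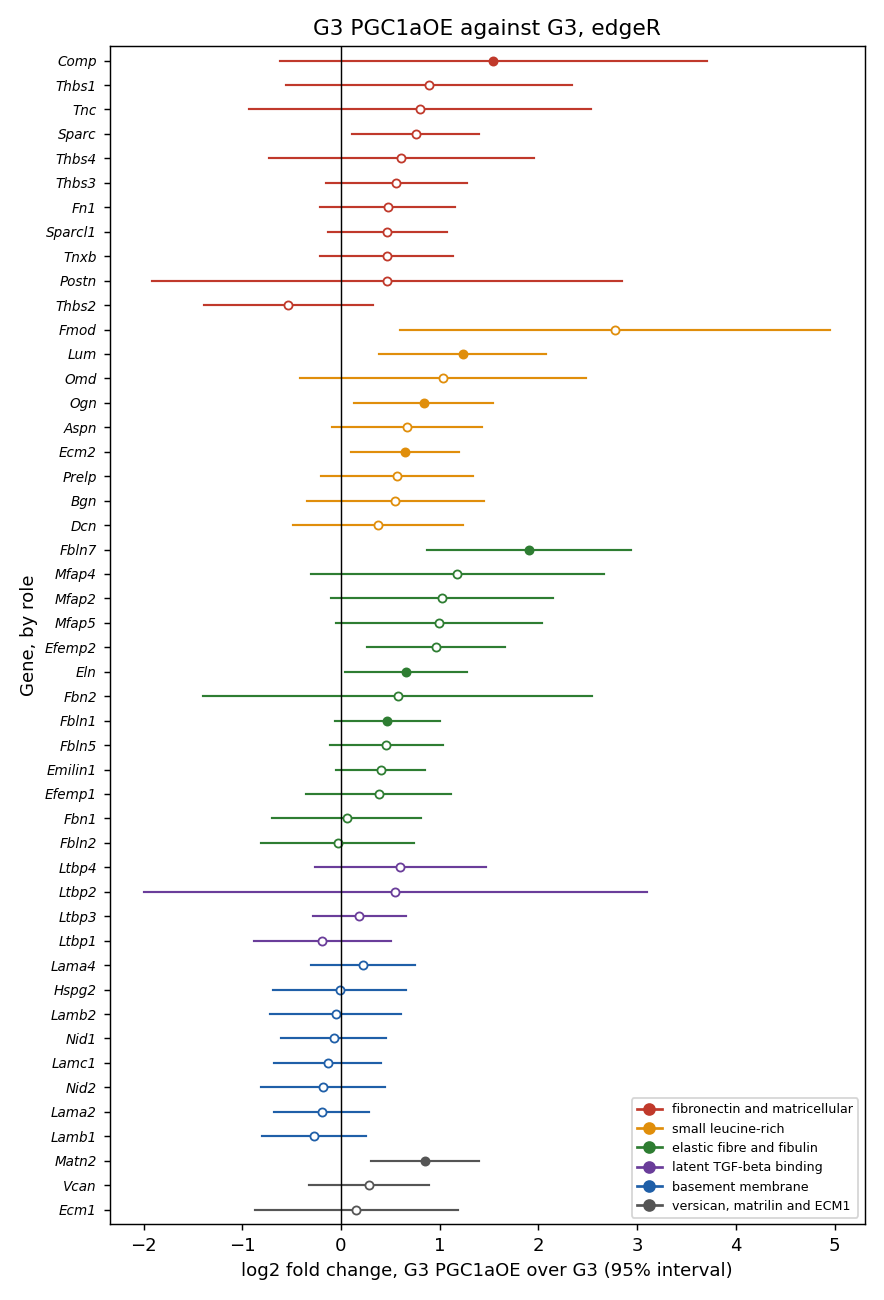
Log2 fold change of each of the 48 members, G3 PGC1aOE minus G3, from edgeR, with bars for the 95% interval, grouped by role. Filled points are the 8 members whose 3 G3 PGC1aOE libraries all lie above the 4 G3 libraries in CPM. Right of 0 lie 38 estimates, and no member passed the adjusted threshold.

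A level per length was used to compare members with each other, as deposited FPKM, a count divided by gene length and library total. Over the 7 libraries, Dcn had the highest mean level at 307 FPKM, followed by Lamb2 at 256, Sparc at 182, Bgn at 158, Sparcl1 at 145 and Ltbp4 at 98.8 FPKM. At the low end were Omd at 0.878 FPKM, Tnc at 0.420, Fbn2 at 0.388 and Fbln7 at 0.356 FPKM. The FPKM file uses a single length per gene, and for some members it is far shorter than the longest coding transcript in GENCODE M21. Lamb2 is the extreme, with 1180 bases against 5629. The median of that share over members was 67.1%, and it was below 50% for 10 of 48 members. Per kilobase of the longest transcript, the first 6 were Dcn, Sparc, Sparcl1, Bgn, Ltbp4 and Lamb2, which puts Lamb2 at rank 6, against rank 2 by FPKM, and leaves Dcn at rank 1. These lengths are the same in every library and do not enter the comparisons between groups, which used counts.

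**Figure D2:**
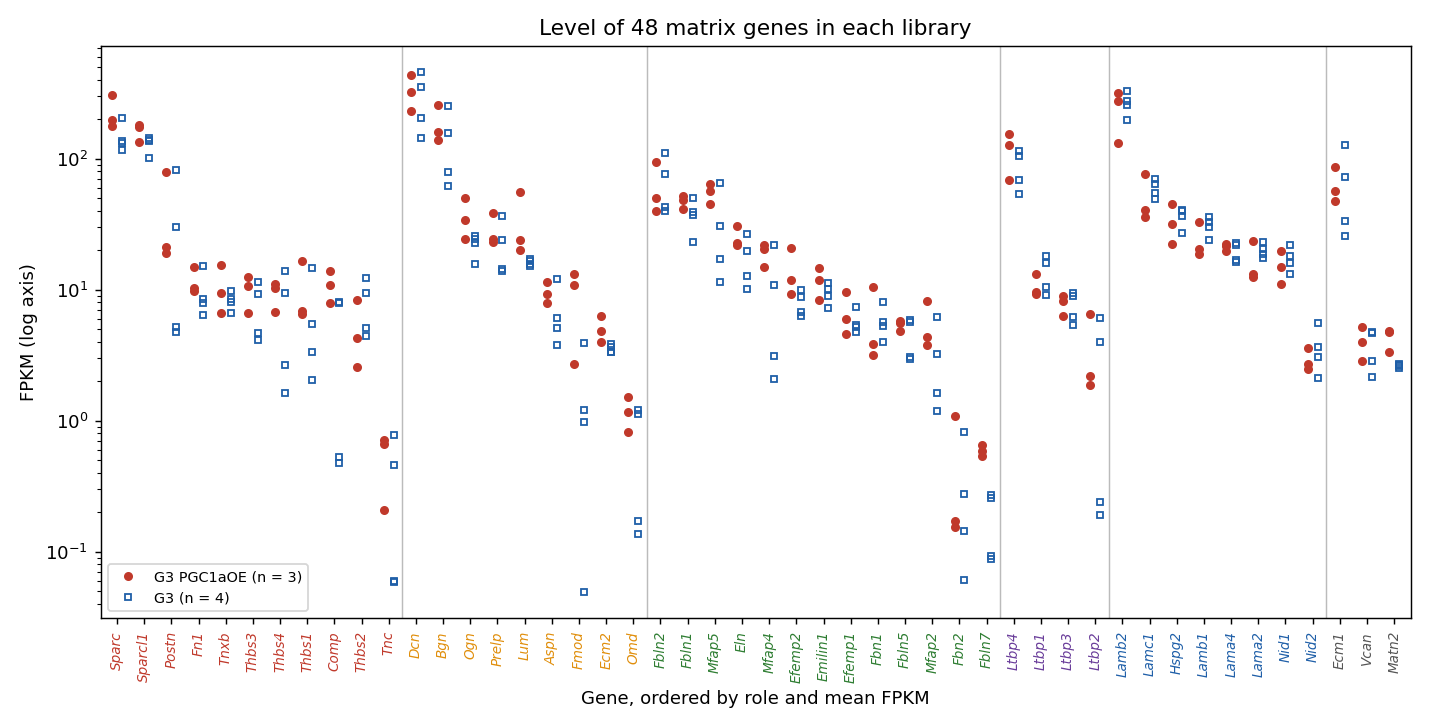
Level of each member in each library in FPKM on a log axis, G3 PGC1aOE libraries drawn beside G3 libraries, ordered by role and then by mean level. Dcn has the highest mean, 307 FPKM, and Fbln7 the lowest, 0.356 FPKM.

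All 9 small leucine-rich proteoglycan genes had positive estimates. Lum (ENSMUSG00000036446) encodes lumican, a keratan sulphate proteoglycan that binds collagen fibrils. It had 37.5, 54.4 and 138 CPM in G3 PGC1aOE libraries, against 29.2, 28.7, 35.8 and 36.5 CPM in G3 libraries. The groups did not overlap, although G3 PGC1aOE library 1 stood only just above the highest G3 library and library 3 was far above the rest. The log2 fold change was 1.23 (SE 0.38, 95% interval 0.39 to 2.08), with an unadjusted p of 0.00841 and an adjusted p of 0.847 in edgeR.

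Ogn (ENSMUSG00000021390), which encodes osteoglycin, had 77.6, 66.9 and 149.7 CPM in G3 PGC1aOE libraries, against 57.5, 35.7, 65.2 and 61.3 CPM in G3 libraries. Its log2 fold change was 0.84 (SE 0.32, 95% interval 0.13 to 1.54). Again the groups did not overlap in CPM, by a narrow margin between G3 PGC1aOE library 2 and G3 library 3. Ecm2 (ENSMUSG00000043631), a leucine-rich matrix protein gene, had 15.8, 15.5 and 26.9 CPM in G3 PGC1aOE libraries, against 11.04, 11.6, 12.0 and 14.7 CPM in G3 libraries, a log2 fold change of 0.65 (SE 0.25). For Lum, Ogn and Ecm2 alike, G3 PGC1aOE library 3 had the highest value, and for Lum and Ecm2 the 4 G3 libraries lay close together.

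Fmod (ENSMUSG00000041559), encoding fibromodulin, a lumican relative that also steers collagen fibril assembly, had the largest estimate of the 48. It had 4.42, 21.4 and 28.7 CPM in G3 PGC1aOE libraries, against 1.64, 6.35, 0.0897 and 2.33 CPM in G3 libraries, from 57, 294 and 390 counts against 18, 86, 1 and 31 counts. G3 library 2 exceeded G3 PGC1aOE library 1, so the groups overlapped. The log2 fold change was 2.78 (SE 0.94, 95% interval 0.60 to 4.95). The value of 0.0897 CPM rests on 1 read. Cytl1, picked from 6 valve interstitial markers after its values were seen, was also highest in G3 PGC1aOE libraries 2 and 3 and next in G3 library 2, at 2.25, 45.4 and 71.6 CPM in G3 PGC1aOE libraries and 5.38, 27.0, 4.13 and 6.01 CPM in G3 libraries, but it was lowest in G3 PGC1aOE library 1, where Fmod was not. Of the 3 valve markers tested, Chad had a log2 fold change of 2.08. It had 0.543, 7.64 and 25.2 CPM in G3 PGC1aOE libraries, against 0.638, 9.24, 0.179 and 0.225 CPM in G3 libraries. Scx went the other way, with a log2 fold change of -0.67. The 6 valve markers summed to 14.3, 60.9 and 103 CPM in G3 PGC1aOE libraries and 27.5, 53.6, 10.3 and 10.1 CPM in G3 libraries, with Acan, Col2a1 and Hapln1 at 0 counts in at least 1 library. The part of valve tissue in the Fmod values was not tested.

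Dcn (ENSMUSG00000019929), encoding decorin, the most abundant member, had 531, 463 and 954 CPM in G3 PGC1aOE libraries, against 595, 752, 379 and 282 CPM in G3 libraries. These ranges overlap broadly and the log2 fold change was 0.37 (SE 0.39, 95% interval -0.49 to 1.23). The other 4 genes of the group, Bgn (biglycan), Prelp, Aspn (asporin) and Omd (osteomodulin), had log2 fold changes of 0.55 to 1.03 with overlapping groups. In the GRCm38 annotation, several of these genes are immediate neighbours among protein-coding genes: Dcn next to Lum, Prelp next to Fmod, and Ecm2, Aspn, Omd and Ogn in a row. Neighbours did not have the same profile over the libraries: Dcn was lowest in G3 libraries 3 and 4, where Lum was not, and Omd had 0.269 and 0.225 CPM in those libraries, where Ogn had 65.2 and 61.3 CPM.

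Among elastic fibre and fibulin genes, Fbln7 (ENSMUSG00000027386) had the lowest unadjusted p of all members. It encodes fibulin 7, a small member of the fibulin family, and had 1.48, 2.18 and 2.13 CPM in G3 PGC1aOE libraries, against 0.730, 0.739, 0.269 and 0.301 CPM in G3 libraries. The groups did not overlap, but the values rest on 19, 30 and 29 counts against 8, 10, 3 and 4 counts. Its log2 fold change was 1.90 (SE 0.47, 95% interval 0.87 to 2.94), with an unadjusted p of 0.00203 and an adjusted p of 0.847 in edgeR.

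Eln (ENSMUSG00000029675), encoding elastin, had 75.4, 68.0 and 70.9 CPM in G3 PGC1aOE libraries, against 67.4, 48.4, 35.3 and 29.5 CPM in G3 libraries. The G3 PGC1aOE libraries were tightly grouped (71.4 ± 3.72 CPM, SD, n = 3) and the G3 libraries spread over more than a 2-fold range (45.1 ± 16.8 CPM, SD, n = 4). The log2 fold change was 0.66 (SE 0.28, 95% interval 0.04 to 1.28). G3 library 1 came within 1 CPM of the lowest G3 PGC1aOE library.

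Efemp2 (ENSMUSG00000024909) encodes fibulin 4, which is needed for elastic fibre assembly. It had 6.75, 18.3 and 11.5 CPM in G3 PGC1aOE libraries, against 7.48, 6.43, 5.56 and 5.49 CPM in G3 libraries. G3 PGC1aOE library 1 lay inside the G3 range and the other two lay above it, with a log2 fold change of 0.96 (SE 0.32). Mfap5 (ENSMUSG00000030116), a microfibril-associated glycoprotein gene, had 51.5, 69.9 and 53.4 CPM in G3 PGC1aOE libraries, against 60.1, 27.4, 11.6 and 18.2 CPM in G3 libraries, a log2 fold change of 0.99 (SE 0.47). Its G3 libraries spanned a wider range than its G3 PGC1aOE libraries, and G3 library 1 lay among the G3 PGC1aOE values. Fbln2 (ENSMUSG00000064080), encoding fibulin 2, had 135, 86.1 and 74.0 CPM in G3 PGC1aOE libraries, against 161, 107, 67.6 and 67.3 CPM in G3 libraries, and its log2 fold change of -0.03 (SE 0.35, 95% interval -0.81 to 0.74) was the only negative one in the group. The remaining genes of this group were Fbn1 and Fbn2 (fibrillins), Emilin1, Mfap2, Mfap4, Fbln1, Fbln5 and Efemp1, with log2 fold changes of 0.06 to 1.18. Of these only Fbln1 had groups that did not overlap in CPM. It had 97.9, 111 and 104 CPM in G3 PGC1aOE libraries, against 75.8, 94.5, 79.4 and 51.6 CPM in G3 libraries.

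In the matricellular group, Sparc (ENSMUSG00000018593), whose product binds collagen and assists its processing, had 227, 422 and 265 CPM in G3 PGC1aOE libraries, against 240.3, 149.5, 173 and 158 CPM in G3 libraries. G3 library 1 exceeded G3 PGC1aOE library 1, and no other pair crossed. The log2 fold change was 0.76 (SE 0.29, 95% interval 0.11 to 1.40). Its relative Sparcl1 had 226, 355 and 396 CPM in G3 PGC1aOE libraries, against 238, 227, 190.2 and 287 CPM in G3 libraries, with a log2 fold change of 0.47 (SE 0.27). Thbs3 (ENSMUSG00000028047), a pentameric thrombospondin gene, had 15.3, 15.9 and 10.7 CPM in G3 PGC1aOE libraries, against 11.7, 13.9, 6.37 and 5.94 CPM in G3 libraries (log2 fold change 0.56, SE 0.32). None of these 3 genes separated the groups. Fn1 (fibronectin), Thbs1 and Tnxb (tenascin X) had log2 fold changes of 0.47, 0.89 and 0.47, also with overlap. Thbs2, a regulator of collagen assembly and of angiogenesis, was the only matricellular gene with a negative estimate (log2 fold change -0.53, SE 0.38).

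Comp (ENSMUSG00000031849), a further pentameric thrombospondin that binds collagen fibrils, had 30.3, 20.97 and 31.1 CPM in G3 PGC1aOE libraries, against 18.1, 17.1, 1.17 and 1.35 CPM in G3 libraries. The groups did not overlap in CPM, and the log2 fold change was 1.54 (SE 0.92, 95% interval -0.62 to 3.71). The wide interval comes with a split inside the G3 group: G3 libraries 1 and 2 were near the G3 PGC1aOE libraries, and these 5 libraries held 198 to 423 counts, against 13 and 18 counts in G3 libraries 3 and 4.

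The genes of the latent TGF-beta binding protein family had mixed estimates. Ltbp4 (ENSMUSG00000040488) had 183, 497 and 448 CPM in G3 PGC1aOE libraries, against 189.7, 280.3, 161 and 362 CPM in G3 libraries (log2 fold change 0.60, SE 0.39). Ltbp3 (ENSMUSG00000024940) had 41.6, 46.2 and 38.4 CPM in G3 PGC1aOE libraries, against 45.0, 40.9, 32.4 and 29.8 CPM in G3 libraries (log2 fold change 0.18, SE 0.21). Both overlapped between groups, as did Ltbp1 (log2 fold change -0.19) and Ltbp2 (0.55).

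Basement membrane genes had small differences in either direction. Lama2 (ENSMUSG00000019899), the laminin alpha 2 chain of muscle, had 77.6, 49.2 and 56.5 CPM in G3 PGC1aOE libraries, against 68.9, 75.4, 68.3 and 67.4 CPM in G3 libraries. Its 4 G3 values were among the steadiest in the data, with an SD of 0.07 on the log2 CPM scale that only 2.46% of tested genes fell below. Lamb2 (ENSMUSG00000052911), laminin beta 2, had 337, 355 and 183 CPM in G3 PGC1aOE libraries, against 302, 271, 389 and 249.7 CPM in G3 libraries. Their log2 fold changes were -0.20 (SE 0.22, 95% interval -0.68 to 0.29) for Lama2 and -0.05 (SE 0.30, 95% interval -0.71 to 0.61) for Lamb2.

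Lamb1 (ENSMUSG00000002900), laminin beta 1, had 74.8, 51.8 and 60.9 CPM in G3 PGC1aOE libraries, against 56.3, 73.8, 91.0 and 81.1 CPM in G3 libraries (log2 fold change -0.27, SE 0.24). Lama4 (ENSMUSG00000019846), the alpha chain of vascular laminin, was the only gene of the 8 with a positive estimate, at 51.1, 64.1 and 61.1 CPM in G3 PGC1aOE libraries, against 41.1, 38.1, 58.7 and 63.4 CPM in G3 libraries (log2 fold change 0.22, SE 0.24). Nid2 (ENSMUSG00000021806), which links laminin to type IV collagen, had 15.8, 13.2 and 15.7 CPM in G3 PGC1aOE libraries, against 13.8, 24.1, 10.4 and 19.0 CPM in G3 libraries (log2 fold change -0.18, SE 0.28), and it shares 437 exon bases with Rtraf on the opposite strand, whose reads cannot be told apart with a kit that does not mark strand. All of these overlapped between groups. Hspg2 (perlecan), Lamc1 (laminin gamma 1) and Nid1 lay between -0.14 and -0.01. Over the 8 genes, the ends of the 95% intervals ran from -0.81 for Nid2 to 0.75 for Lama4 on the log2 scale.

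Of the remaining members, Matn2 (ENSMUSG00000022324), encoding matrilin 2, a filament-forming adaptor protein, had 10.7, 18.2 and 20.2 CPM in G3 PGC1aOE libraries, against 8.66, 7.98, 9.42 and 10.1 CPM in G3 libraries. The groups did not overlap and the G3 libraries lay close together (9.05 ± 0.937 CPM, SD, n = 4). The log2 fold change was 0.85 (SE 0.25, 95% interval 0.31 to 1.40), with an unadjusted p of 0.00576 and an adjusted p of 0.847 in edgeR. Vcan (ENSMUSG00000021614), the large proteoglycan versican, had 18.2, 12.1 and 18.3 CPM in G3 PGC1aOE libraries, against 16.8, 16.5, 11.2 and 8.87 CPM in G3 libraries (log2 fold change 0.28, SE 0.28). Ecm1 (ENSMUSG00000028108), a secreted glycoprotein that binds perlecan and fibulins, had 48.4, 90.6 and 53.6 CPM in G3 PGC1aOE libraries, against 64.5, 108, 32.1 and 26.2 CPM in G3 libraries (log2 fold change 0.15, SE 0.46). For Ecm1 the spread inside the G3 group was wider than any difference between the groups.

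Many members varied more inside the G3 group than most genes. The median SD of log2 CPM over the 4 G3 libraries was 0.52 for members and 0.29 for all tested genes, and over the 3 G3 PGC1aOE libraries 0.46 for members and 0.40 for all tested genes. An SD above 1 in the G3 group was found for 11 members (22.9%), against 3.72% of tested genes. Ltbp2, with an SD of 2.38, varied more than 99.8% of tested genes, and Comp, with 2.11, more than 99.7%. The members summed to 3950, 4475 and 4653 CPM in G3 PGC1aOE libraries 1 to 3, against 3866, 3850, 2937 and 3083 CPM in G3 libraries 1 to 4. As a share of total counts, without TMM, they made up 0.44, 0.41 and 0.39% in G3 PGC1aOE libraries. In G3 libraries that share was 0.42, 0.43, 0.29 and 0.29%, so the groups overlapped in it. G3 library 3 was the lowest of the 7 for 16 members and G3 library 4 for 16 more, where those libraries were lowest for 16.1% and 9.37% of all tested genes.

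**Figure D3:**
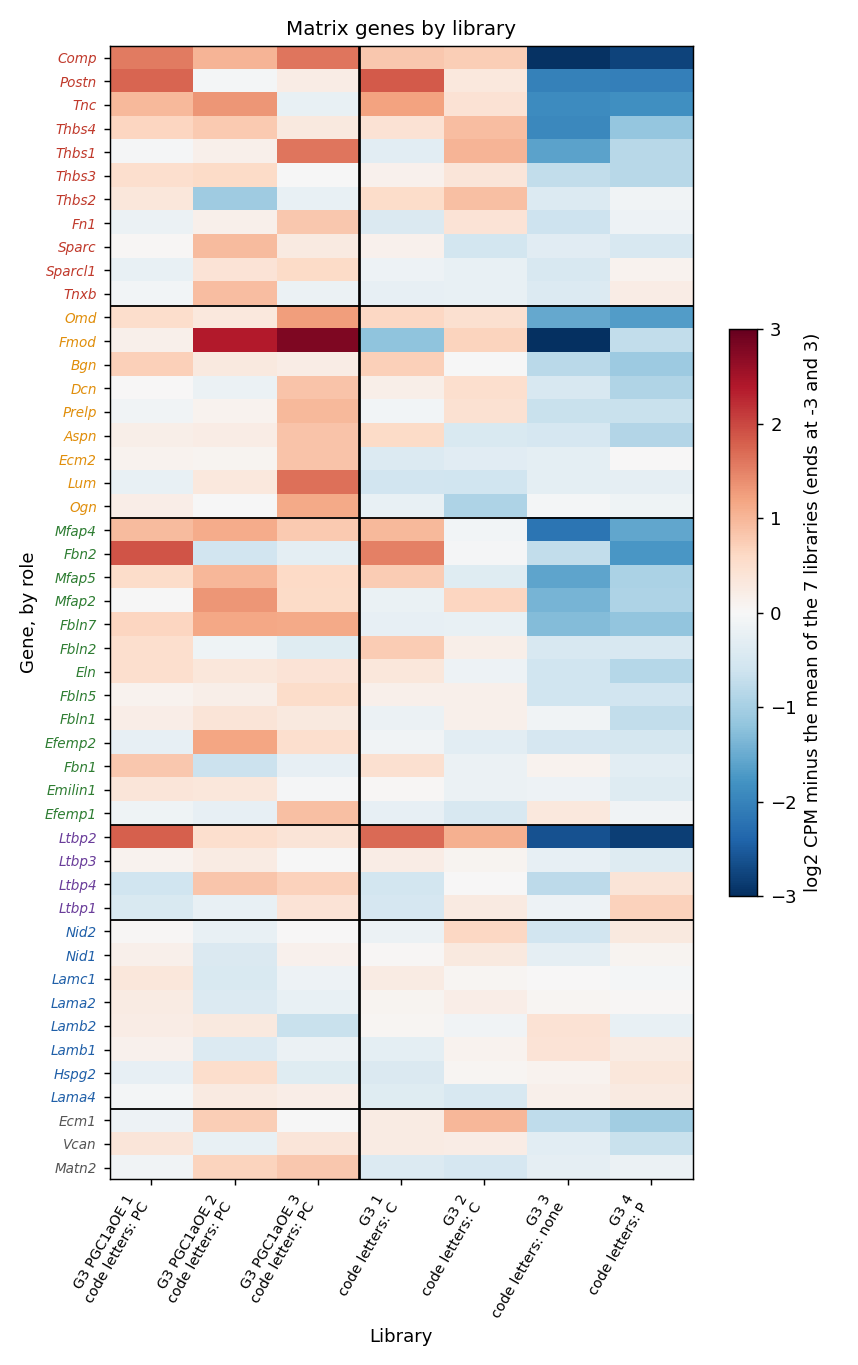
Level of each member in each library, as log2 CPM relative to the member's mean over the 7 libraries, with members grouped by role and G3 PGC1aOE libraries left of G3 libraries. The mean log2 CPM over the members is 5.24 to 5.38 in G3 PGC1aOE libraries, 5.09 and 5.06 in G3 libraries 1 and 2, and 4.18 and 4.31 in G3 libraries 3 and 4.

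The sample descriptions carry codes, and one letter in them follows this split. The code holds the letter C in all 3 G3 PGC1aOE libraries and in G3 libraries 1 and 2, and holds none in G3 libraries 3 and 4. The labels do not say what the letter stands for, and it was taken up after the values had been seen. A fit with the letter as a term beside the group estimates the letter from the difference between G3 libraries 1 and 2 and G3 libraries 3 and 4, since no G3 PGC1aOE library lacks it. In edgeR this term called 8 of 12674 genes (0.0631%), all higher with the letter, and 2 of the 8 were members, Comp and Ltbp2. All 5 libraries with the letter lay above both libraries without it for 24 of 48 members (50%), against 7.01% of tested genes, and lay below them for 1 member, Lamb1, against 5.74%. The term was positive for 35 members, against 49.4% of tested genes. Its unadjusted p was under 0.05 for 21 members with a higher value, against 4.83% of tested genes, and for 1 member with a lower value, Lama4, against 2.15%.

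Comp had a log2 fold change of 3.79 (SE 0.35, adjusted p = 0.00613 in edgeR) with the letter against without it, 13.8-fold. Ltbp2 (ENSMUSG00000002020), which binds fibrillin microfibrils, had 21.9, 8.88 and 8.17 CPM in G3 PGC1aOE libraries and 20.6 and 13.2 CPM in G3 libraries 1 and 2, against 0.897 and 0.752 CPM in G3 libraries 3 and 4. The 5 libraries with the letter held 111 to 282 counts, against 10 counts in each library without it. Its log2 fold change for the letter was 4.35 (SE 0.59, adjusted p = 0.0343 in edgeR), 20.4-fold, and Ltbp2 shares 764 exon bases with an antisense gene, D030025P21Rik, that had 2 counts in G3 library 1 and 0 counts in every other library.

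These calls rest on few libraries. Without G3 library 3 the letter term called 0 genes in edgeR, with 520 at an unadjusted p under 0.05, and without G3 library 4 it called 0, with 569. The log2 fold changes themselves were 3.70 and 3.90 for Comp and 4.48 and 4.22 for Ltbp2 in those fits, each of which left a single library without the letter, whose spread was assumed to be like that of the others. Without G3 library 1 it called 2 genes, of which Comp was one and Ltbp2 was not. Without G3 library 2 it called 7, with both Comp and Ltbp2 among them. Leaving out G3 PGC1aOE library 1 raised the count to 76 genes with 5 members, which were Comp, Ltbp2, Postn, Thbs4 and Mfap4, and leaving out library 2 or library 3 of that group gave 4 and 5 genes with Comp as the only member.

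Further members, picked here after their values were seen, had the same split without passing the test. Postn (ENSMUSG00000027750), encoding periostin, a product of activated fibroblasts, had 162, 46.7 and 57.0 CPM in G3 PGC1aOE libraries and 173 and 60.6 CPM in G3 libraries 1 and 2, against 11.8 and 11.5 CPM in G3 libraries 3 and 4. Its log2 fold change for the letter was 3.32 (SE 0.70, adjusted p = 0.213 in edgeR). Thbs4 (ENSMUSG00000021702), a thrombospondin induced in loaded hearts, had 18.2, 20.3 and 14.4 CPM in G3 PGC1aOE libraries and 15.8 and 22.2 CPM in G3 libraries 1 and 2, against 2.96 and 5.11 CPM in G3 libraries 3 and 4, a log2 fold change of 2.23 (SE 0.36, adjusted p = 0.0857). Both genes were lowest in G3 libraries 3 and 4, and in the other 5 libraries the values of the groups were interleaved.

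Mfap4 (ENSMUSG00000042436), a microfibril-associated glycoprotein gene, had 23.6, 26.5 and 20.9 CPM in G3 PGC1aOE libraries and 24.0 and 11.5 CPM in G3 libraries 1 and 2, against 2.51 and 3.98 CPM in G3 libraries 3 and 4 (log2 fold change 2.43, SE 0.41, adjusted p = 0.0944 in edgeR). It shares 89 exon bases with Mapk7 on the opposite strand. The matricellular gene Tnc (tenascin C) and the proteoglycan gene Omd were low throughout. Tnc had 3.57, 4.66 and 1.47 CPM in G3 PGC1aOE libraries and 4.29 and 2.44 CPM in G3 libraries 1 and 2, against 0.359 and 0.376 CPM in G3 libraries 3 and 4. Including Fbn2, 8 members (16.7%) were at least 4-fold higher with the letter, against 1.26% of tested genes.

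**Figure D4:**
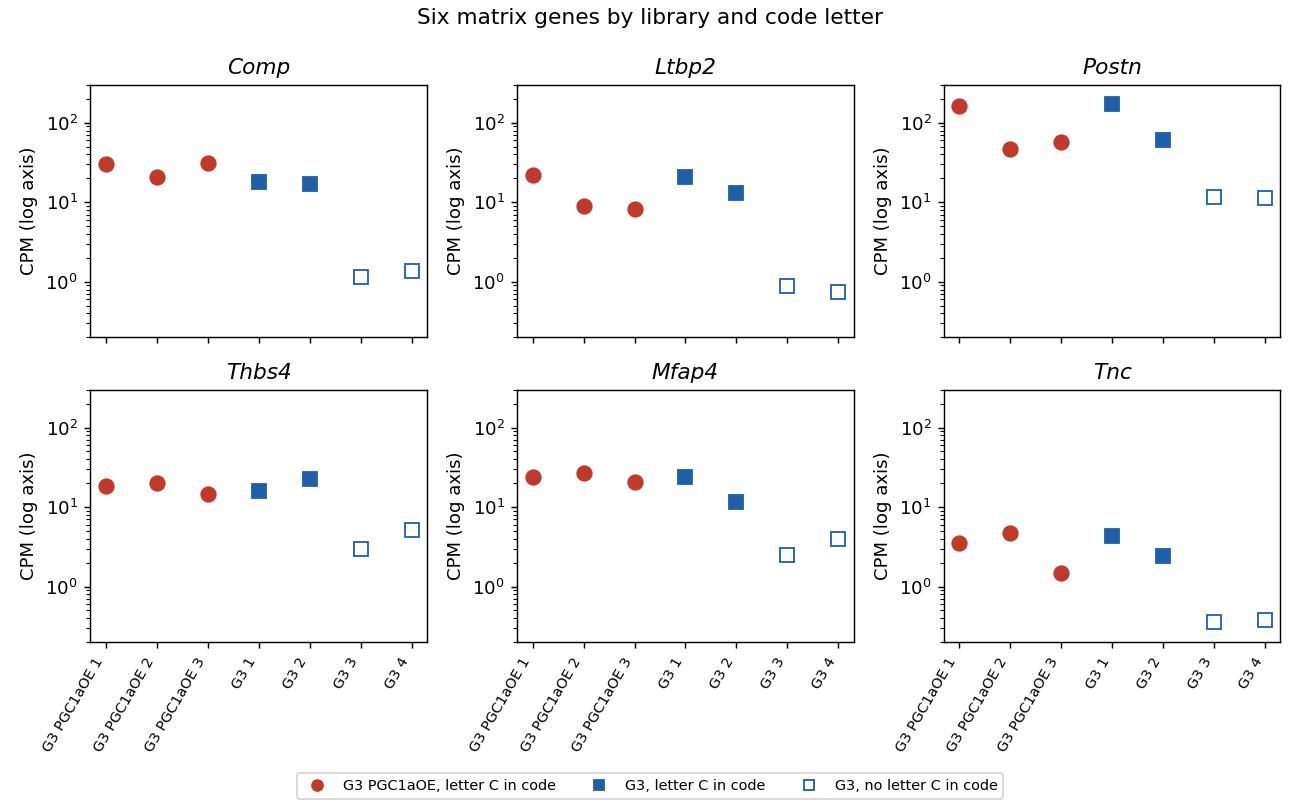
CPM on a log axis of members in G3 PGC1aOE libraries, in G3 libraries whose code holds the letter C and in G3 libraries whose code does not. Comp has 20.97 to 31.1 CPM, 17.1 and 18.1 CPM, and 1.17 and 1.35 CPM in these, and Ltbp2 has 8.17 to 21.9, 13.2 and 20.6, and 0.752 and 0.897 CPM.

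The estimates for the label and the letter are set side by side here for members picked after their values were seen, with no test between the terms. Lum, Ogn, Ecm2 and Matn2 had negative estimates for the letter, at -0.32, -0.44, -0.24 and -0.23 on the log2 scale, with positive differences between G3 PGC1aOE and G3 in the same fit, none of which passed the test (adjusted p = 0.895 in edgeR). Those differences were 1.40 for Lum, 1.07 for Ogn, 0.78 for Ecm2 and 0.98 for Matn2. Postn, Thbs4, Tnc and Ltbp2 had differences of -0.40, -0.11, -0.05 and -0.38 between G3 PGC1aOE and G3 in that fit. Comp had a difference of 0.64 (SE 0.27) beside its letter term of 3.79.

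With the letter as a term, 31 members had positive differences between G3 PGC1aOE and G3, as had 6487 of 12674 tested genes. The members' median log2 fold change was 0.22, against 0.01 over all tested genes. Without the term, 38 members were positive with a median of 0.51. In the edgeR fit with the term, 0 genes were called (0%), with 587 at an unadjusted p under 0.05. An unadjusted p under 0.05 with a higher value was found for 7 members, against 2.90% of tested genes. Among members with a lower value, only Thbs2, at -0.95 (SE 0.37), had an unadjusted p under 0.05 in this edgeR fit. By role, the median letter estimate was 1.06 for the fibronectin and matricellular genes, 0.89 for the small leucine-rich genes, 0.84 for the elastic fibre and fibulin genes, 0.16 for the latent TGF-beta binding genes and -0.03 for the basement membrane genes. The basement membrane median is taken over 4 positive and 4 negative letter estimates, from -0.62 for Lama4 to 0.36 for Nid2.

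**Figure D5:**
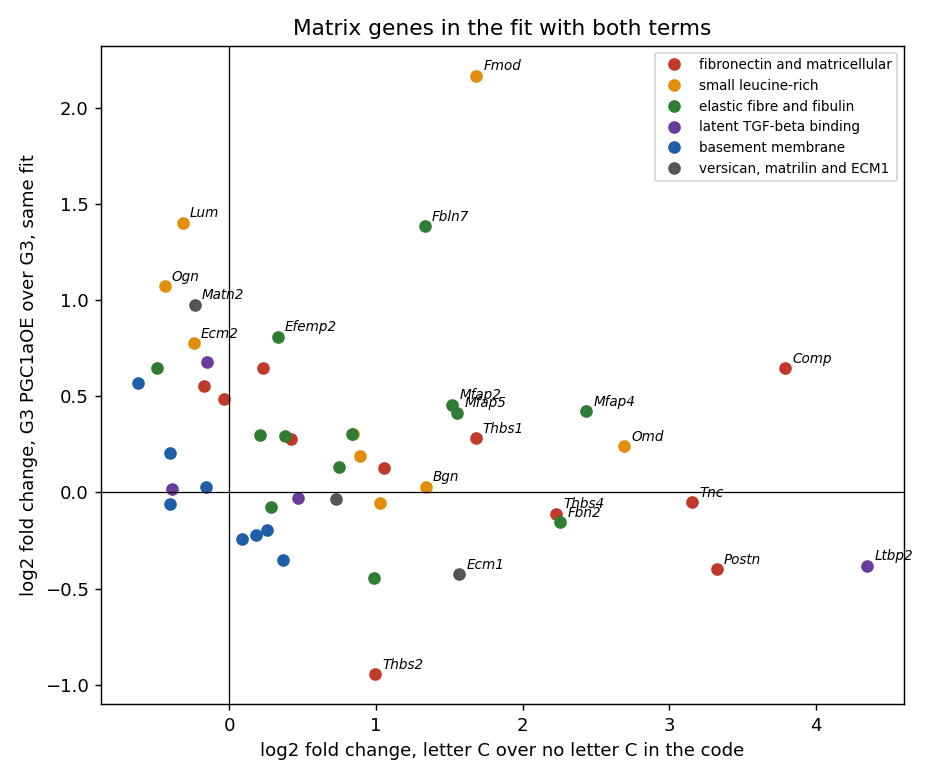
Each member's log2 fold change for the letter C, with against without it, on the x axis and its log2 fold change between G3 PGC1aOE and G3 from the same fit on the y axis, with colours for role. Ltbp2 and Comp lie farthest right, at 4.35 and 3.79 on the x axis with y values of -0.38 and 0.64, while Lum and Ogn lie high and left of 0, at y values of 1.40 and 1.07.

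Promoter sequence was read from RefSeq on GRCm38.p6, 250 bases up to the start of the transcript. The table held windows for 34 of 48 members, 44 windows in all, and Comp was not among them. Shown are Ltbp2 and Thbs4, which were lowest in the 2 libraries without the letter. Also shown are Fbln7 and Ogn, which did not overlap between G3 PGC1aOE and G3 in CPM. Each is written 5′ to 3′ on its gene's strand, with motif matches on either strand in capitals. The motifs searched were the TATA box (TATAAA), a TEAD core (GGAATG), a SMAD element (CAGACA) and an AP-1 site (TGANTCA).
Ltbp2, chr12:84876492-84876741, minus strand: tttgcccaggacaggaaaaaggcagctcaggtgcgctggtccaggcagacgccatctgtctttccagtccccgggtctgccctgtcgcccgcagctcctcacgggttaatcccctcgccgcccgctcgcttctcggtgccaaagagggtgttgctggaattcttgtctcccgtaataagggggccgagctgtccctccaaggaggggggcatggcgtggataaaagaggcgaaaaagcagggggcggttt
Thbs4, chr13:92794819-92795068, minus strand: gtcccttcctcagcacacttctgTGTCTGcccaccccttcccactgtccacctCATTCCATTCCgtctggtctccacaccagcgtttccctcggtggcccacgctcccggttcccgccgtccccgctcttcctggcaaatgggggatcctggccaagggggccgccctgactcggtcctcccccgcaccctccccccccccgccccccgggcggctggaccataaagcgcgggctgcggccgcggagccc
Fbln7, chr2:128863682-128863931, plus strand: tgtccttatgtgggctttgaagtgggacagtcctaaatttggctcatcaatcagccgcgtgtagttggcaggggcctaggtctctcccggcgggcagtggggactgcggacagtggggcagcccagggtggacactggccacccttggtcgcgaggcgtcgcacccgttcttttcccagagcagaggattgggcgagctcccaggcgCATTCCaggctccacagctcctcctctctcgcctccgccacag
Ogn, chr13:49607765-49608014, plus strand: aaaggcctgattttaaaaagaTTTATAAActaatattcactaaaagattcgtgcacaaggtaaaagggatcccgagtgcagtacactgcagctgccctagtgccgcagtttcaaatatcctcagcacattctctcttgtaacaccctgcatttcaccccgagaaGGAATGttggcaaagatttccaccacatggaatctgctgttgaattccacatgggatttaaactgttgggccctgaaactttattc

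The Ltbp2 window has 61.6% G and C and none of the 4 motifs. The Thbs4 window is the richest in G and C of these at 70.8%, with 2 overlapping GGAATG matches and 1 CAGACA match, all on the opposite strand. Fbln7 has 63.2% and 1 GGAATG match, and Ogn has 42.0%, 1 GGAATG match and 2 overlapping TATAAA matches, one on each strand. TATAAA was present in 7 of 44 member windows (15.9%) against 12.4% of 32851 windows, GGAATG in 5 (11.4%) against 12.6%, CAGACA in 12 (27.3%) against 17.1%, and TGANTCA in 3 (6.82%) against 6.75%. A match is a description of the letters in the window and says nothing about binding in these hearts.

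Both estimates come from one fit and share the G3 libraries with the letter, so their relation across members is given as a description. The codes also hold the letter P in all 3 G3 PGC1aOE libraries and in G3 library 4, so the 2 libraries without C differ in that letter, and they hold a number and a generation mark, G2 or G3, with no stated meaning. Among libraries with a code number below 80 (1 G3 PGC1aOE and 3 G3), 42 of 48 members were higher in the G3 PGC1aOE library. The same held for 51.4% of tested genes, and the members' median log2 CPM difference was 0.28. Among libraries of 80 and above (2 and 1), 38 members were higher, against 50.9% of tested genes, with a median of 1.00. Within the code mark G2 (1 and 2 libraries) 44 members were higher, against 50.4% of tested genes, with a median of 0.34. Within the mark G3 (2 and 2) 37 were higher, against 49.6% of tested genes, with a median of 0.60. Among the 5 libraries with the letter C (3 and 2), 30 of 48 were higher, against 49.1% of tested genes, with a median of 0.17. There, 10 members had G3 PGC1aOE libraries that all lay above both G3 libraries, against 8.43% of tested genes. These subsets overlap and some hold 1 library of a group, so their values are descriptions only.

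Markers of some other cells moved with the letter beside the members, and other lists had negative median letter estimates. The median was -0.11 over 12 endothelial markers (5 positive) and -0.27 over 11 smooth muscle and pericyte markers (4 positive). It was -0.31 over 10 cardiomyocyte, -0.75 over 5 tested mesothelial and epicardial and -1.42 over 6 erythroid markers (3, 1 and 0 positive). The 6 valve markers summed to 14.3 to 103 CPM with the letter, against 10.3 and 10.1 CPM without it. The 5 myofibroblast markers summed to 145, 316 and 232 CPM in G3 PGC1aOE libraries and 181 and 176 CPM in G3 libraries 1 and 2, against 82.2 and 85.5 CPM in G3 libraries 3 and 4. Cilp, picked from these markers after its values were seen, had 72.4, 29.6 and 19.7 CPM in G3 PGC1aOE libraries and 61.9 and 40.9 CPM in G3 libraries 1 and 2, against 3.68 and 3.31 CPM in G3 libraries 3 and 4. Ccn5 had the same split, with a letter estimate of 4.48, but Acta2 and Fap did not, with letter estimates of 0.08 and -0.52, and Cthrc1 was at 0 counts in G3 library 3. The 10 macrophage markers summed to 420.2 to 477 CPM in G3 PGC1aOE libraries and 476 and 567 CPM in G3 libraries 1 and 2, against 269 and 228 CPM in G3 libraries 3 and 4. The summed fibroblast markers, of which Gsn is the most abundant, did not split this way, at 1219 and 1818 CPM in G3 libraries 1 and 2, against 1325 and 1279 CPM in G3 libraries 3 and 4, while Dpep1 and Htra3 on that list did, with letter estimates of 1.56 and 0.68. Markers of Schwann cells and neurons summed to 38.0 to 86.9 CPM in G3 PGC1aOE libraries and 40.3 and 42.2 CPM in G3 libraries 1 and 2, against 20.7 and 28.7 CPM in G3 libraries 3 and 4. Adipocyte markers summed to 76.1 to 122 CPM in G3 PGC1aOE libraries and 74.9 and 106 CPM in G3 libraries 1 and 2, against 48.4 and 55.5 CPM in G3 libraries 3 and 4, with Ucp1 at 0 counts in every library. The part of these cells in the letter's difference was not tested.

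All 4 atrial markers had positive letter estimates (median 7.12), with 0 called. Only Myl4 was higher in every library with the letter than in both without it. It had 2.33, 10.8 and 433 CPM in G3 PGC1aOE libraries. In G3 libraries 1 to 4 it had 85.0, 134, 1.08 and 1.35 CPM. Myl7, the atrial myosin light chain, had 0, 7.86 and 420 CPM in G3 PGC1aOE libraries, against 113, 141, 0.718 and 0.451 CPM in G3 libraries, and Sln and Myl4 were likewise highest in G3 PGC1aOE library 3 and G3 libraries 1 and 2. Nppa, also on the atrial list and known to be expressed in stressed ventricle, had 3921, 448 and 1246 CPM in G3 PGC1aOE libraries, against 2400, 2477, 70.4 and 599 CPM in G3 libraries, and made up nearly all of the summed level in G3 PGC1aOE library 1. That library, with 0 counts of Myl7, had 30.3 CPM of Comp, 21.9 CPM of Ltbp2 and 162 CPM of Postn. The part of atrial tissue in the members' values was not tested. Myh7, the beta myosin heavy chain of the slow and stressed ventricle, had 8072, 395 and 265 CPM in G3 PGC1aOE libraries, against 6071, 4906, 293 and 1206 CPM in G3 libraries. Postn, Ltbp2, Fbn1, Fbn2, Fbln2, Bgn and Lamc1, like Myh7, had their highest values in G3 PGC1aOE library 1 and G3 library 1. Comp was among the members that did not. Leaving out the 3 libraries highest in Myl7, Sln and Myl4 gave 40 members with positive estimates, with 0 called. The members' median was 0.66, against 0.04 over all tested genes. That fit set G3 PGC1aOE libraries 1 and 2, both with the letter, against G3 libraries 3 and 4, both without it, so label and letter cannot be told apart in it.

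Genes around the members were read from fixed lists that were drawn up with earlier results of these data known. Of 17 collagen chain genes, fibrillar and other, 0 passed the test in edgeR, 16 had positive and 1 negative estimates, and the median log2 fold change was 0.80, with 7 higher at an unadjusted p under 0.05, against 3.05% of all tested genes. Col3a1 had 134, 161 and 147 CPM in G3 PGC1aOE libraries, against 62.7, 41.7, 68.4 and 69.4 CPM in G3 libraries (log2 fold change 1.28, SE 0.24), without overlap, and was 1 of the 3 genes that DESeq2 called, and Col14a1 had a log2 fold change of 0.95. In the letter term the collagen median was 0.16, with 0 called in edgeR. At an unadjusted p under 0.05, 3 were higher, against 4.83% of all tested genes. Without overlap, 6 were higher with the letter, against 7.01% of all tested genes. Whether the collagens differed from the members was not tested. The collagens' median difference between G3 PGC1aOE and G3 was 0.71 with the term in the fit. Of these 17 genes 7 lay higher in G3 PGC1aOE without overlap, against 2.19% of all tested genes.

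Receptors and regulators were more evenly divided. Of 26 tested integrins, syndecans and other matrix receptors out of 27 listed, 15 had positive and 11 negative estimates (median 0.13), and 0 passed. The dystroglycan gene Dag1, whose product binds laminin, had 310, 108 and 187 CPM in G3 PGC1aOE libraries, against 326, 349, 332 and 311 CPM in G3 libraries (log2 fold change -0.71, SE 0.34), and Sdc1, a syndecan, had a log2 fold change of 0.74. Of 17 TGF-beta ligands, receptors and SMAD genes, 9 had positive and 8 negative estimates (median 0.04), with 0 called, and the endothelial receptor genes Acvrl1 and Eng were at 0.55 and 0.68. Of 23 tested genes for proteoglycan chain synthesis out of 24 listed, 12 had positive and 11 negative estimates (median 0.11), with Ndst1, a heparan sulphate sulphotransferase, at -0.87, Dsel at 0.54 and 0 called. Of 5 elastic fibre crosslinkers, 3 had positive and 2 negative estimates (median 0.17), while their median for the letter was 1.52, with 0 called. The lysyl oxidase relatives Loxl1 and Loxl3 had log2 fold changes of 0.36 and 0.38 between G3 PGC1aOE and G3.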

How the data were processed

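The authors deposited whole-number read counts for each Ensembl gene, not normalized, and FPKM, which equalled the counts divided by the column total and one length per gene. Libraries came from flash-frozen hearts by Trizol and a TruSeq RNA kit, per the labels, and that kit does not mark strand. CASAVA, Bowtie 0.12.2 and the mm9 build are given per the submitters' processing notes. Which program counted the reads, on which annotation, and how it treated strand or multiply matching reads is not given in the sources used.

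Samples were grouped by the genotype label. Counts were scaled by TMM, filtered with filterByExpr and tested with edgeR 4.0.16 under R 4.3.3 by the robust quasi-likelihood F-test, 2-sided, with a group term alone and p-values adjusted by Benjamini-Hochberg over 12674 genes, at a threshold of 0.05. Log2 fold changes are G3 PGC1aOE minus G3. Each SE is the absolute log2 fold change divided by the square root of the F statistic. The 95% intervals are symmetric t intervals built from that SE. Log2 CPM used a prior count of 2. Symbols were matched for 21748 of 22027 identifiers, and 279 were unmatched. Alternatives included upper quartile and RLE scaling, 2 further count filters, DESeq2 1.42.0, limma 3.58.1 (voom, and log2 FPKM with pseudocounts of 1 and 0.1), covariates and subsets from the sample codes, a block on replicate number, and leaving out single libraries. The letter C fits and the removal of the libraries highest in Myl7, Sln and Myl4 were chosen after the values were seen. The scripts were tested on simulated data.

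The members and all lists were chosen with earlier results of these data known. Genes given in full were, in each role, the 4 of lowest p (2 in roles under 8 members) and the one of highest mean FPKM, with 2 genes of lowest p from each pathway list. Others named in full are marked. The reference at hand was of another build than mm9, so it gave transcript lengths, neighbours, overlaps and promoter sequences only.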

Additional observations from a re-analysis of the deposited data

How the results depend on the processing

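No member was called between G3 PGC1aOE and G3 under any of the 22 alternatives run, and the members' median log2 fold change stayed positive, at 0.36 to 0.61 with each library left out in turn, 0.22 with the letter C as a term and 0.24 among libraries with the letter. Genes called, 0 in edgeR, were 3 with DESeq2, 4 with the replicate block and 0 with each library left out. Without G3 PGC1aOE library 1, 2464 genes had an unadjusted p under 0.05 in edgeR, against 548 with all libraries. The lowest adjusted p of a member was then 0.098. Leaving out any other library gave 231 to 550 such genes. Same-numbered libraries correlated at 0.46, 0.12 and -0.09 in their deviations from the group means. The value of 0.46, for the libraries numbered 1, was the highest of any pair. G3 PGC1aOE library 2 correlated best with G3 library 4, at 0.33. Deviations from means of 3 and 4 libraries depend on each other, so these values cannot decide whether the numbers pair the libraries. With the replicate block the members' median was 0.46. The count for the letter ran from 0 to 76 with each library left out. On log2(FPKM + 0.1) the median over all genes moved to -0.11. With 3 against 4 libraries, low counts in single libraries limit precision, as for Fbln7 (3 and 4), Ltbp2 (10) and Fmod (1).

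The estimates that changed sign are given here, and the cause was not tested. In the main fit, those that changed with the letter term ran from -0.19 for Ltbp1 to 0.80 for Tnc. Thbs4 was at 0.61, Fbn2 at 0.57, Ltbp2 at 0.55 and Postn at 0.46, while others such as Fbn1 (0.06) and Lamb2 (-0.05) were near 0. With the letter as a term the changed estimates were Postn -0.40, Thbs4 -0.11, Tnc -0.049, Dcn -0.054, Fbn1 -0.077, Fbn2 -0.15, Ltbp1 0.019, Ltbp2 -0.38, Ltbp3 -0.030, Hspg2 0.20, Lamb2 0.028, Vcan -0.036 and Ecm1 -0.43. Among libraries with the letter they were Postn -0.39, Thbs4 -0.091, Tnc -0.031, Dcn -0.039, Fbn1 -0.063, Fbn2 -0.14, Ltbp1 0.035, Ltbp2 -0.37, Ltbp3 -0.013, Hspg2 0.22, Lamb2 0.047, Vcan -0.021 and Ecm1 -0.41. Without the libraries highest in Myl7, Sln and Myl4 they were Thbs2 0.059, Fbln2 0.72, Efemp1 -0.32, Lama4 -0.080, Lamb2 0.12 and Lamc1 0.0075. The code number as a covariate gave Fbln2 0.26 and Lamb2 0.090, and the code's generation mark gave Fbln2 0.025 and Lamb2 0.015. Fbn1 was -0.16 with log2(FPKM + 0.1), -0.12 with log2(FPKM + 1) with or without a filter and -0.083 with voom. The replicate block gave Fbn1 -0.16, Ltbp1 0.041 and Hspg2 0.072, and upper quartile scaling gave Fbln2 0.0033 and Hspg2 0.032.

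With each library left out in turn, the members whose sign changed ran from -0.31 to 1.66 (Postn), -0.018 to 0.63 (Dcn), -0.49 to 0.33 (Fbn1), -0.70 to 1.55 (Fbn2), -0.34 to 0.29 (Fbln2), -0.099 to 0.59 (Efemp1), -0.48 to 0.053 (Ltbp1), -0.058 to 1.37 (Ltbp2), -0.34 to 0.15 (Hspg2), -0.22 to 0.19 (Lamb2), -0.39 to 0.030 (Lamc1), -0.18 to 0.092 (Nid1), -0.37 to 0.046 (Nid2) and -0.18 to 0.65 (Ecm1).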

Other observations

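The 6 genes outside the matrix set that the letter term called in edgeR were all higher in libraries whose code holds the letter C. Dkk3, a secreted Wnt pathway relative, had a log2 fold change of 5.01 (adjusted p = 0.0343). Acp5, the tartrate-resistant acid phosphatase of macrophages and osteoclasts, was at 4.64 (adjusted p = 0.0124), and Gpnmb, a macrophage glycoprotein, at 3.87 (adjusted p = 0.00613). Prg4, the lubricating proteoglycan lubricin, was at 4.29 and Timp1, an inhibitor of matrix metalloproteinases, at 3.74 (adjusted p = 0.00613 each). Mt2, a metallothionein, was at 3.06 (adjusted p = 0.0328). Like the calls of Comp and Ltbp2, none of these stood once G3 library 3 or G3 library 4 was left out.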
